A study of Mus musculus with 6 samples.

Results

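The 10 genes described here encode the structural microtubule-associated proteins Map1a, Map1b, Map1s, Map2, Map4, Map6 and Mapt and the end-binding proteins Mapre1, Mapre2 and Mapre3. They were chosen by gene symbol from the 24411 symbols of the count tables, and all 10 were among the 15303 genes with enough reads to be tested. Cochlear tissue of Kir2.1-OE mice was compared with that of littermate controls at P9, with 3 libraries in each group, to find which transcripts change when inner hair cells (IHCs) can no longer fire their own Ca2+ action potentials. Mice of both groups were C57BL/6N and carried Otof-rtTA, a doxycycline-dependent activator driven by the Otof promoter, on a single allele. Both groups were exposed to doxycycline (DOX). The study put it at 0.5 mg/ml into the drinking water of pregnant and nursing females and of weaned pups. The dose that reached pups at P9 is not given. Only the Kir2.1-OE mice also carried a single copy of tet-o-Kir2.1-IRES-tau-lacZ, from which the activator drives Kir2.1, an inward rectifier K+ channel, together with a tau-lacZ reporter. Each library came from a pool of 8 cochleae from 4 mice, so the replicate is a pool and not a mouse. The Otof promoter is active mainly in IHCs, but the RNA came from the whole dissected sensory epithelium, and a difference in these libraries is a difference of the tissue, in which fewer cells of a type and less RNA per cell cannot be told apart.

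Microtubules are hollow polymers of tubulin that give cells their shape and serve as tracks for transport. Structural microtubule-associated proteins bind along the polymer and stabilize, space or bundle it, and many of them are typical of neurons. The end-binding proteins sit on the growing plus end and recruit other proteins to it. In the cochlea microtubules fill the nerve fibres of the spiral ganglion neurons, run through the hair cells below the hair bundle, and form thick arrays in the pillar and Deiters' cells that support them.

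Mapt (tau), Map2 and Map4 belong to a single family, whose members bind microtubules through similar repeats near the end of the protein. Estimated counts can be split between genes that share sequence. A stretch of 54 coding bases within the first of these repeats is therefore shown, to set out how alike these members are there. It was read from the GENCODE vM21 annotation of mm10, on the plus strand, at chr11:104310478-104310531 in exon 6 of Mapt, at chr1:66425472-66425525 in exon 12 of Map2 and at chr9:110068929-110068982 in exon 13 of Map4. Capitals mark the bases that all 3 genes share.
Mapt: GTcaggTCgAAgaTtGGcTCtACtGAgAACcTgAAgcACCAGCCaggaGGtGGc
Map2: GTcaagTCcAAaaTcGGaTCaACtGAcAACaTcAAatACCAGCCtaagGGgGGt
Map4: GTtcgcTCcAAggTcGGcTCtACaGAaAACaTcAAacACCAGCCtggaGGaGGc

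Of these 54 bases, 32 (59.3%) were identical in all 3 genes, and the longest identical run of any pair was 9 bases, between Map2 and Map4. Over their whole transcripts no pair of the 10 genes shared a stretch of 31 bases, so that the similarity within the family leaves no such stretch from which a read could be assigned to either member. Outside the 10 genes, Mapre1 shared 283 stretches (3.64% of its own) with other genes in the same orientation, 112 of them with Gm8545, and Map4 shared 134 (0.871%) with Ftx, so that their counts can hold or lose some reads of these genes. Map1a shared 242 stretches (1.99% of its own) with Ppip5k1, which overlaps it on the opposite strand. In the opposite orientation Map4 shared 126 (0.819%) with Gm43980 and 113 (0.734%) with Gm9894. As the strand setting of the counting is not given in the sources used here, reads from these stretches cannot be told apart.

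Map1a, Map1b, Mapt and Map6, 4 of the 10 genes, were called higher in the Kir2.1-OE libraries, and 0 were called lower. A gene was called at an adjusted p-value under 0.05, adjusted by Benjamini-Hochberg over all genes tested after the quasi-likelihood test of edgeR, and a fold change above 1.5. By this rule 15.5% of all genes tested were called higher and 5.08% lower. Without the fold threshold, 8 of the 10 genes were higher and 1, Mapre1, was lower, against 27.3% and 23.5% of all genes. Against a stricter null, a log2 fold change of 0.6, the same 4 genes were higher by edgeR's glmTreat, with 5.44% of all genes. The lowest Kir2.1-OE library exceeded the highest control library in 8 genes, and the reverse held in Mapre1, where 31.7% and 29.9% of all genes were separated in these directions. The median log2 fold change was 0.48 over the 10 genes and 0.01 over all genes tested. Map1a, Map1b and Mapt are among the genes that the study named from these same libraries, so their direction is not independent evidence.

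**Figure D1:**
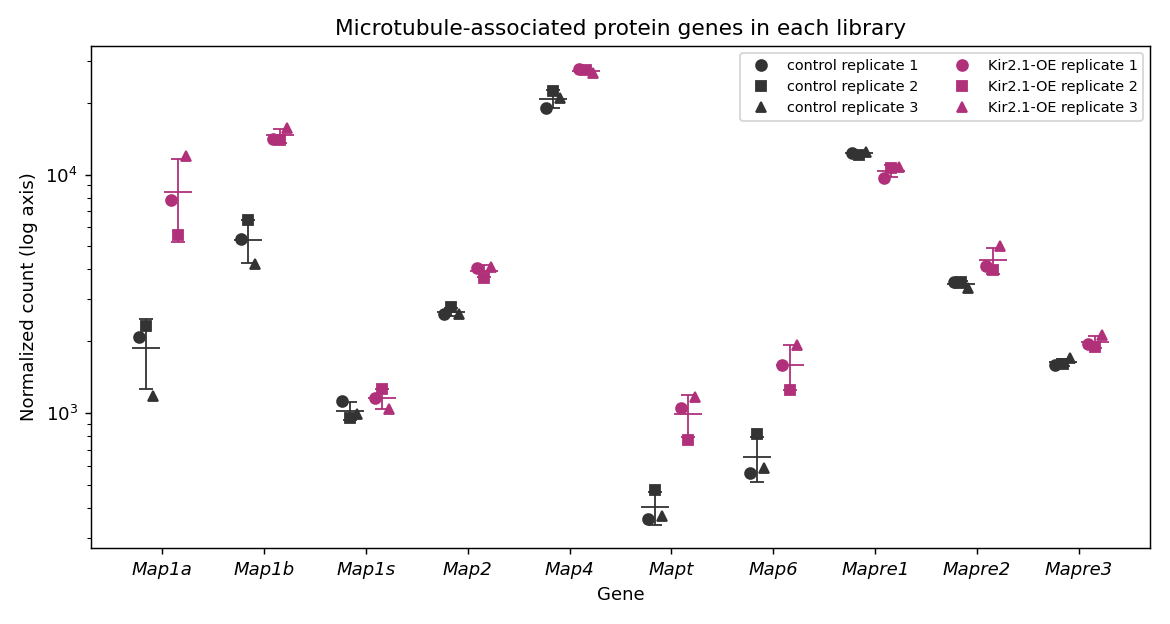
Normalized count (log axis) of each of the 10 genes in the 3 control libraries (grey) and the 3 Kir2.1-OE libraries (magenta), with symbols for the replicates and a bar for the mean ± SD. Map1a, Map1b, Mapt and Map6 show the widest gaps between the groups, Mapre1 is the gene whose Kir2.1-OE libraries all lie below the controls, and the groups of Map1s overlap.

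Map1a and Map1b are the large MAP1 proteins of neurons, of which Map1b is prominent in growing axons and Map1a in more mature neurons, and Map1s is a smaller relative found in many tissues. Map1a (ENSMUSG00000027254.13, chr2:121289600-121310832 on the plus strand of mm10) had normalized counts of 7803.8, 5582.1 and 11916.8 in the Kir2.1-OE libraries, given here and below as replicates 1 to 3, and of 2089.8, 2326.1 and 1179.7 in the controls. The lowest Kir2.1-OE library held 2.40 times the count of the highest control library, although the libraries of a group differed widely, with a coefficient of variation of 38.1% in Kir2.1-OE and 32.5% in control. The mean count rose from 1865 ± 605 to 8434 ± 3210 (SD, n = 3 pools in each group). The log2 fold change was 2.18, with a standard error of 0.299 and a 95% interval from 1.5 to 2.85, at an adjusted p of 0.000468 by edgeR's quasi-likelihood test. No other of the 10 genes changed as much.

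Map1b (chr13:99421446-99516540, minus strand) had normalized counts of 14046.4, 14004.2 and 15736.8 in the Kir2.1-OE libraries and of 5350.5, 6429.4 and 4232.3 in the controls. Here the Kir2.1-OE libraries lay close together, with the lowest at 2.18 times the highest control library. The mean rose 2.73-fold, a log2 fold change of 1.45 with a standard error of 0.137 and an adjusted p of 0.000146 by edgeR. Map1s had counts of 1155.7, 1264.1 and 1035.6 in the Kir2.1-OE libraries and of 1125.7, 955.0 and 989.4 in the controls. The groups overlapped, and the log2 fold change of 0.17, with a 95% interval from -0.05 to 0.39, did not pass (adjusted p = 0.177 by edgeR).

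In the MAP2 and tau family, Mapt was called and Map2 and Map4 were not. Mapt, the tau protein of axons, had normalized counts of 1048.0, 771.5 and 1161.5 in the Kir2.1-OE libraries and of 360.2, 475.2 and 369.5 in the controls. The groups were apart, with the highest control library and the lowest Kir2.1-OE library both replicate 2. The log2 fold change of Mapt was 1.30, with a standard error of 0.165 (adjusted p = 0.000323 by edgeR), from a mean of 401.6 ± 63.9 to 993.7 ± 201 (SD, n = 3 pools each). The transgene's reporter carries tau sequence, whose source species and length are not given in the labels, and its part in the Mapt count was not tested.

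Map2, which is best known from dendrites, had normalized counts of 4046.1, 3691.4 and 4109.8 in the Kir2.1-OE libraries and of 2588.5, 2771.3 and 2611.9 in the controls. All Kir2.1-OE libraries were higher, and the spread within each group was small. The mean rose 1.49-fold, at a log2 fold change of 0.57 with a standard error of 0.0708 (adjusted p = 0.000295 by edgeR), and so fell just short of the fold threshold. Map4, the family's member in most non-neuronal cells, was the most abundant of the 10 genes, with 27670.0, 27396.8 and 26649.7 normalized counts in the Kir2.1-OE libraries and 18946.9, 22400.4 and 21026.3 in the controls. Its groups were apart as well, but the log2 fold change was 0.39, with a standard error of 0.0809 (adjusted p = 0.00345 by edgeR).

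Map6, also called STOP, stabilizes microtubules against cold. Its normalized counts were 1593.0, 1246.1 and 1929.5 in the Kir2.1-OE libraries and 560.8, 815.0 and 589.4 in the controls. Replicate 2 was again the lowest of the Kir2.1-OE libraries and the highest of the controls. The log2 fold change was 1.28, with a standard error of 0.179 (adjusted p = 0.000513 by edgeR), close to that of Mapt.

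None of the 3 end-binding proteins was called, with log2 fold changes from -0.25 to 0.34 by edgeR. Mapre1 (EB1), the ubiquitous member, had normalized counts of 9635.9, 10612.6 and 10754.2 in the Kir2.1-OE libraries and of 12341.3, 12067.5 and 12373.3 in the controls. It was the only one of the 10 genes with every Kir2.1-OE library below every control library. Its log2 fold change of -0.25, with a 95% interval from -0.41 to -0.09, passed the test at an adjusted p of 0.0174 by edgeR, but not the fold threshold.

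Mapre2 (EB2) had normalized counts of 4124.1, 3986.2 and 5016.4 in the Kir2.1-OE libraries and of 3531.5, 3526.4 and 3338.6 in the controls, a log2 fold change of 0.34 (adjusted p = 0.0136 by edgeR). For Mapre3 (EB3), the member best known from neurons and muscle, the counts were 1948.1, 1895.7 and 2113.6 in the Kir2.1-OE libraries and 1584.2, 1609.2 and 1692.7 in the controls, a log2 fold change of 0.29 (adjusted p = 0.00888 by edgeR). In both genes the Kir2.1-OE libraries all lay above the controls, by less than the fold threshold. Kir2.1-OE replicate 3 was the highest library of both genes, and without it the log2 fold change was 0.21 for Mapre2 and 0.23 for Mapre3.

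To compare levels between genes, counts were divided by the length of the longest coding transcript and expressed as CPM, the share of a library's scaled total, per kilobase. On this scale of levels the control order ran from Map4 at 90.9 ± 7.60, through Mapre1 at 44.5 ± 0.610, to Mapt at 2.04 ± 0.324 (SD, n = 3 pools). Mapre2 and Mapre3 (22.9 and 21.5), Map1b and Map2 (9.55 to 14.5, and 11.3 ± 0.423), and Map1a and Map6 (4.20 and 3.55) were neighbours in the control order whose libraries overlapped. Map1s, at 8.22, stood apart from both its neighbours.

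In the Kir2.1-OE libraries Map4 was still the highest, at 119 ± 2.31 CPM per kilobase, and Mapt still the lowest, at 5.04 ± 1.02. By these lengths Map1b moved from the fifth place to the third, at 32.9 ± 2.23, and Map1a from the eighth to the sixth, at 19.0 ± 7.24. Between the second place, Mapre1 at 37.5, and the seventh, Map2 at 16.8, each gene overlapped the next in the order, so these places are not distinct. The order depends on the transcript chosen. With the median length of all annotated transcripts of a gene, Mapre1 (472) and Map4 (471) were level in the controls, Map6 took the lowest place of both groups from Mapt, Map1b was the third in both groups, and Map1a went from the ninth place (9.37) to the seventh (42.4).

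A ratio of 2 genes within the same library does not depend on how libraries are scaled to each other. Between related genes 8 such ratios were compared by an exact two-sided permutation test, whose smallest p with 3 pools against 3 is 0.10, so none of them could pass 0.05. There were 6.75, 4.42 and 11.5 counts of Map1a for each count of Map1s in the Kir2.1-OE libraries and 1.86, 2.44 and 1.19 in the controls. The ratio of Map1a to Map1b was 0.556, 0.399 and 0.757 in the Kir2.1-OE libraries and 0.391, 0.362 and 0.279 in the controls. Both ratios were higher in every Kir2.1-OE library, the first by 3.99 times and the second by 1.62 times on average (exact permutation p = 0.10 and adjusted p = 0.11 over the 8 ratios for each). The second had a narrow gap, between 0.391 in control replicate 1 and 0.399 in Kir2.1-OE replicate 2.

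Ratios within the tau family and among the end-binding proteins were compared in the same way. The ratio of Mapt to Map4 was 0.0379, 0.0282 and 0.0436 in the Kir2.1-OE libraries and 0.0190, 0.0212 and 0.0176 in the controls, 1.87 times higher. The ratio of Mapre2 to Mapre1 was 0.428, 0.376 and 0.466 against 0.286, 0.292 and 0.270, and that of Mapre3 to Mapre1 was 0.202, 0.179 and 0.197 against 0.128, 0.133 and 0.137. None of these 3 ratios overlapped between the groups, and each had the smallest p the exact permutation test allows, 0.10. The ratio of Map2 to Map4 overlapped, at 0.146, 0.135 and 0.154 in the Kir2.1-OE libraries and 0.137, 0.124 and 0.124 in the controls (exact permutation p = 0.20).

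**Figure D2:**
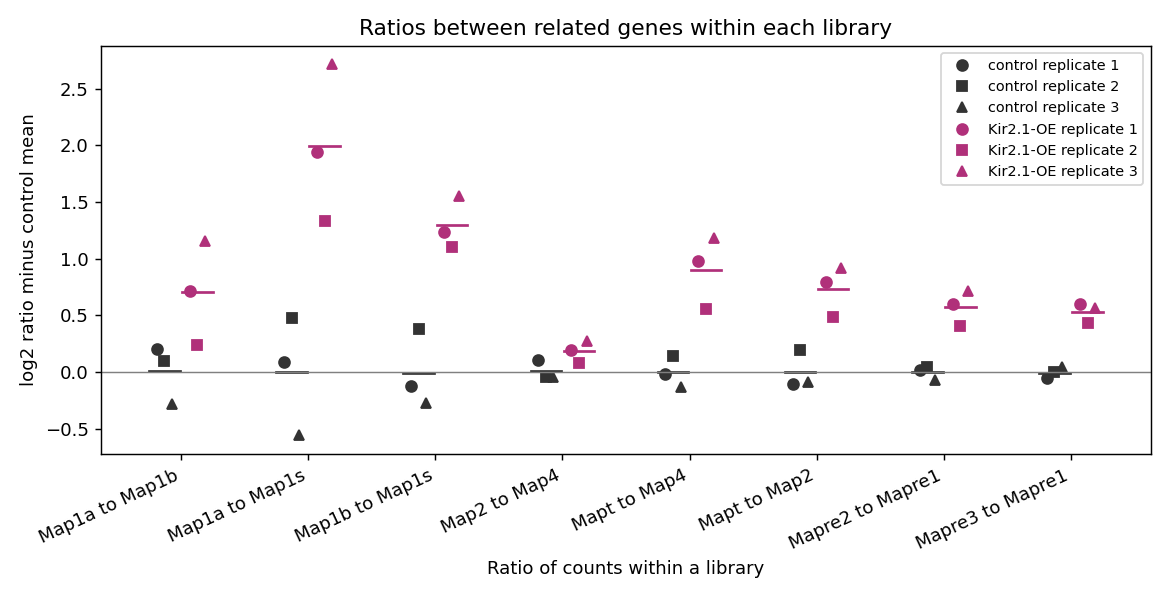
Log2 ratio of the counts of 2 related genes within each library, minus the mean of the control libraries (grey symbols, control; magenta symbols, Kir2.1-OE; horizontal bars, group means). The ratio of Map2 to Map4 is the only one of the 8 in which the groups overlap, and Kir2.1-OE replicate 2 is the lowest of its group in each.

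Transcript length and GC content can move with the counts of a library, and the 10 genes have a median transcript length of 5672 nt, where all genes tested have 3141.5 nt. The test was therefore repeated with an offset for each gene and library, taken from a smooth trend of that library on transcript length and GC content. With these offsets 5.31% of all genes tested were called higher and 3.54% lower, and the 10 genes held 3 called higher and 1 called lower. Without the fold threshold the 10 genes held 5 higher and 3 lower with offsets, against 11.7% and 20.7% of all genes. Map1a kept a log2 fold change of 1.06, with a standard error of 0.280 (adjusted p = 0.0179 by edgeR), Mapt of 0.82 (adjusted p = 0.00407) and Map6 of 0.74 (adjusted p = 0.00869). A block for the replicate number ended the call of Map1a (1.00, adjusted p = 0.0518 by edgeR), although no source says that these numbers pair the libraries. Map1b, at 0.55, passed the test (adjusted p = 0.00714) but no longer the fold threshold.

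The offsets lowered the log2 fold change of every one of the 10 genes but Mapre3, the shortest at 2021 nt, which had 0.32. Map2 came to 0.09, with a 95% interval from -0.06 to 0.23. Map4 and Map1s changed sign, to -0.24 (adjusted p = 0.0356 by edgeR) and -0.31 (adjusted p = 0.0442), so no direction is given for them here that does not depend on this choice. Mapre1, whose transcript of 7336 nt is mostly untranslated, came to -0.68 and was then called lower (adjusted p = 0.00112 by edgeR). That length is of the longest coding transcript, whereas the median over all annotated Mapre1 transcripts was 692 nt. Offsets from another length were not tested. The ratio of Map1a to Map1b, 2 genes of nearly equal transcript length, overlapped between the groups once the offsets were used (exact permutation p = 0.30), whereas the ratio of Map2 to Map4 no longer did. The cause of the trend was not tested.

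**Figure D3:**
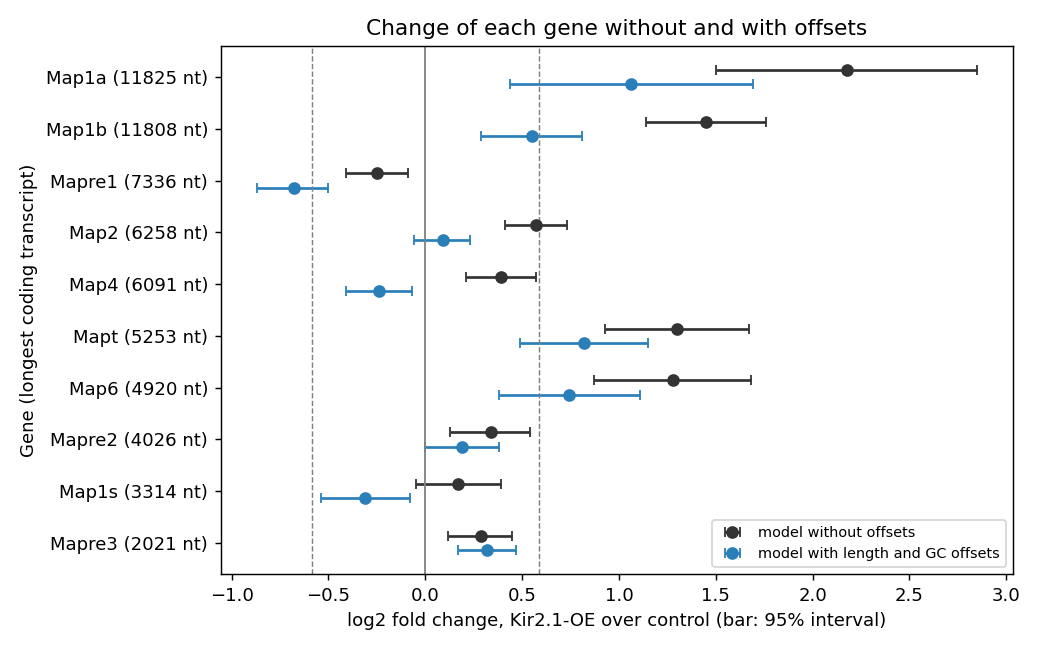
Log2 fold change of each gene, Kir2.1-OE over control, with its 95% interval from the edgeR model without offsets (grey) and with length and GC offsets (blue), ordered by transcript length; the dashed lines mark a fold change of 1.5 in either direction. The offsets move 9 of the 10 genes to lower values, Map1a from 2.18 to 1.06 and Mapre1 from -0.25 to -0.68.

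Markers of other cells moved between the groups too. Beside the marker counts here and below stand 15.5% of all genes tested called higher and 5.08% lower. With the offsets these shares were 5.31% and 3.54%. The mean log2 normalized count of 12 spiral ganglion neuron markers was 10.61, 10.14 and 11.23 in the Kir2.1-OE libraries and 10.13, 10.21 and 9.70 in the controls, so the groups overlapped. Among the 12, 6 were called higher, including the neurofilament genes Nefl (log2 fold change 1.55) and Nefm (1.94) and the synaptic gene Snap25 (1.10), and 1, Uchl1 (-0.80), was called lower, while the neuronal tubulin gene Tubb3 (0.38) did not pass. The summed count of the list lay between 30310 and 60400 in the Kir2.1-OE libraries and between 26220 and 35960 in the controls. This overlap of the sums rested on Uchl1, the marker with the highest mean. Without it the sums of the other 11 did not overlap, at 21450 to 50270 in Kir2.1-OE and 12920 to 19530 in control. None of these markers was at 0 in any library.

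Map1a, Mapt and Map6 were each highest in Kir2.1-OE replicate 3 and lowest in replicate 2 of that group. So were the mean of the neuronal markers and 9 of the 12, whereas Gap43, Syt1 and Uchl1 were lowest in replicate 1. Map1b differed less among the Kir2.1-OE libraries. Relative to the mean of the neuronal markers in the same library, the log2 level of Map1a was 1.52 higher in Kir2.1-OE, that of Map1b 0.83, of Mapt 0.65 and of Map6 0.63, and the groups did not overlap for any of these. Mapre1 was 0.89 lower on this scale, also without overlap. The other 5 genes overlapped, with differences from -0.47 for Map1s to -0.07 for Map2. These 5 depended on Kir2.1-OE replicate 3, without which Map1s came to -0.11, Mapre2 to -0.13, Mapre3 to -0.12, Map4 to 0.05 and Map2 to 0.18. Each of the 5 separated genes had an exact permutation p of 0.10, the smallest possible, and an adjusted p of 0.14 over the 30 such comparisons made.

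The comparison with the neuronal markers changed when the length and GC offsets were taken from both the genes and the markers, an alternative chosen after seeing the data. The neuronal list held 7 of 12 called higher with the offsets, beside 5.31% of all genes tested. Its mean was 0.66 higher on the log2 scale, again with overlap. Relative to it Map1a was 0.35 higher, still without overlap (exact permutation p = 0.10), while Mapt (0.14), Map6 (0.07) and Map1b (-0.11) overlapped between the groups. Mapre1 came to -1.35 and Map4 to -0.90, both without overlap.

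The IHC markers Otof (log2 fold change 0.76) and Slc7a14 (1.36) were called higher, Slc17a8 (0.09) and Tbx2 (0.32) were not, and the mean of these 4 genes was 0.63 higher on the log2 scale, without overlap. With the offsets Slc7a14 (0.64) was still called, Otof (-0.09), Slc17a8 (-0.02) and Tbx2 (-0.20) were not, and the mean was 0.08 higher. Among 8 glia markers 3 were called higher and 0 lower, and their summed count lay between 415600 and 525200 in the Kir2.1-OE libraries and between 289900 and 380800 in the controls. Among 8 supporting cell markers 2 were called higher and 2 lower, with sums from 226700 to 236200 against 264600 to 350200, below the controls. That sum was mostly Tectb, a gene of the tectorial membrane, and without it the sums overlapped, at 83430 to 98000 in Kir2.1-OE and 67770 to 83780 in control. Relative to the IHC markers Map1a was 1.53 higher and Mapre1 0.88 lower, and relative to the glia markers Map1a was 1.56 higher and Mapre1 0.86 lower, on the log2 scale. With offsets Map1a was 0.94 higher relative to the IHC markers, without overlap, and 0.58 higher relative to the glia markers, with overlap (exact permutation p = 0.30). The labels name the tissue as cochlea, and the defining markers of hair cells, neurons, glia and supporting cells were all above 0. The part of these cell types in the changes of the 10 genes was not tested.

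**Figure D4:**
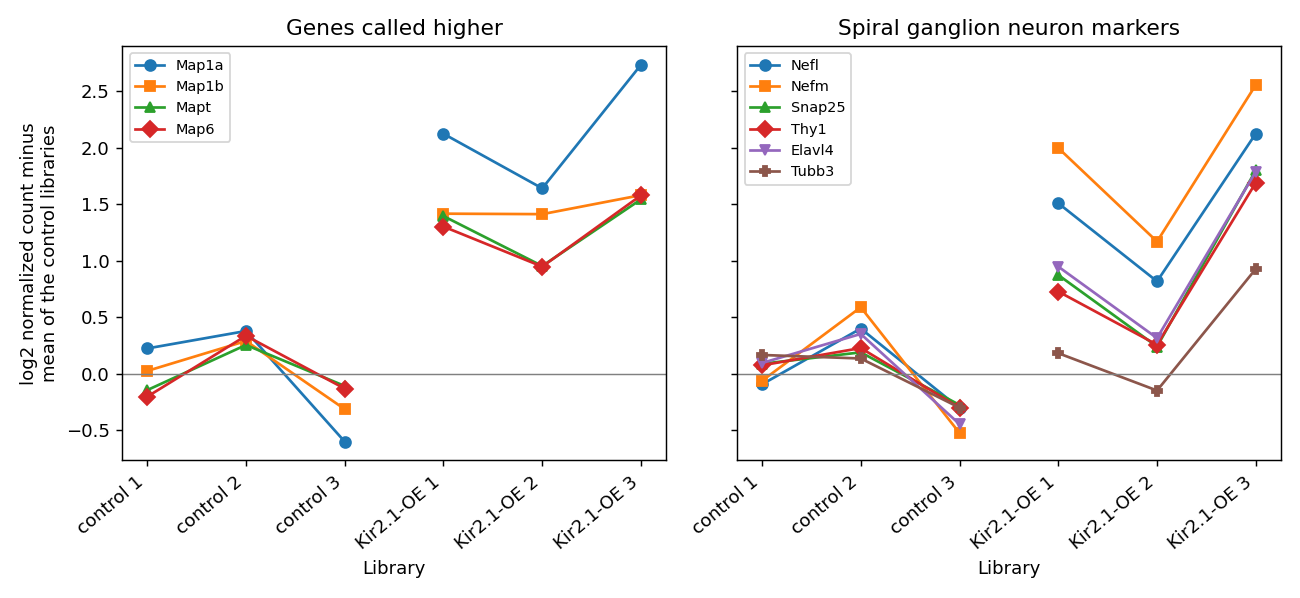
Log2 normalized count minus the mean of the 3 control libraries, for the 4 microtubule-associated protein genes that were called (left) and for 6 of the 12 spiral ganglion neuron markers (right), over the 6 libraries. Kir2.1-OE replicate 2 is the lowest and replicate 3 the highest of its group for each neuronal marker shown and for Map1a, Mapt and Map6. Of the 6 markers left out, Gap43, Syt1 and Uchl1 are lowest in replicate 1. These have negative log2 fold changes (-0.12, -0.13 and -0.80), with Uchl1 called lower, whereas those of Prph (0.14), Stmn2 (0.68) and Rbfox3 (1.58) are positive.

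The label check and the depth of the libraries were as follows. Kcnj2, the gene of Kir2.1, had normalized counts between 2213 and 3813 in the Kir2.1-OE libraries and between 226.0 and 235.8 in the controls, a log2 fold change of 3.80. The Kir2.1-OE libraries held 35430940 to 38193109 assigned reads and the controls 37063812 to 41205047. At this depth the lowest normalized count of any of the 10 genes in any library was 360.2, for Mapt in control replicate 1.

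Other genes that act on microtubules were grouped in 6 lists with 87 genes, all of them tested. In these lists 37 genes were called higher and 2 lower, with a median log2 fold change of 0.55. Beside these counts, and those of each list that follows, stand the 15.5% of all genes tested that were called higher and the 5.08% called lower. Leaving out Kir2.1-OE replicate 3, the library with the highest neuronal markers, gave 34 and 2. In that setting 2314 of all 15478 genes tested were called higher and 1074 lower. With the length and GC offsets the counts were 8 and 3, where 5.31% of all genes tested were called higher and 3.54% lower, and the median was 0.16, where all genes tested had -0.06.

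The plus-end partners, 19 proteins that end-binding proteins recruit or that share the growing end with them, held 12 called higher and 0 lower. The highest were the navigator genes Nav3 (log2 fold change 1.74, adjusted p = 0.000166 by edgeR) and Nav2 (1.62), and the lowest of those called were Tacc1 (0.80) and Tacc2 (0.64). Nav3 had 972.0, 922.4 and 691.8 normalized counts in the Kir2.1-OE libraries and 239.8, 321.7 and 212.7 in the controls. With the offsets 4 remained called, namely Nav3 (0.91), the linker gene Clip1 (0.75), the polymerase gene Ckap5 (0.61) and Apc (0.60). Of the end-binding genes themselves, 0 of 3 were called higher in either model.

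Among 24 other proteins that bind the lattice or the minus end, 10 were called higher and 0 lower. Map7d2, a cofactor of kinesin-1, had a log2 fold change of 1.19, but its libraries overlapped, at 670.2, 340.8 and 895.0 in Kir2.1-OE and 236.8, 347.1 and 248.4 in control. The crosslinking gene Mtcl1 (1.13), Eml4 (0.65) and Map9 (0.64) were called without overlap. With the offsets Map7d2 (1.10) was called higher and Dclk1, a doublecortin-like kinase, lower (-0.67), and the other 22 were not called.

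The 2 genes of MAP1 light chain 3, Map1lc3a and Map1lc3b, encode the autophagy proteins first found with the MAP1 proteins. Neither was called, and in both every Kir2.1-OE library lay below every control library, as in 29.9% of all genes tested. Map1lc3a had 6543.4, 7179.0 and 6979.8 normalized counts in the Kir2.1-OE libraries and 7984.1, 7739.7 and 8740.5 in the controls, a log2 fold change of -0.24 (adjusted p = 0.0248 by edgeR). Map1lc3b had a log2 fold change of -0.29 (adjusted p = 0.0114). With the offsets Map1lc3a came to -0.09 (adjusted p = 0.36 by edgeR) and Map1lc3b to -0.36 (adjusted p = 0.00787 by edgeR).

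Of 11 destabilizers and severing enzymes, the fidgetin gene Fign (log2 fold change 0.97) and the katanin gene Katnal1 (0.67) were called higher and 0 were called lower, a share close to the 15.5% of all genes, with a list median of 0.02. With the offsets Stmn4 (1.29) and the neuronal stathmin Stmn2 (0.86) were called higher instead, although the groups of both overlapped in normalized counts, and with the offsets and a block for the replicate number 0 of the 11 were called. Of 12 kinases and kinase activators that act on microtubule-associated proteins, 7 were called higher and 0 lower, led by the tau-tubulin kinases Ttbk1 (1.31) and Ttbk2 (1.17), with Mark1 (0.62) and Gsk3b (0.62) the lowest of those called. With the offsets 0 of the 12 were called in either direction. At an adjusted p under 0.05 without the fold threshold, Ttbk2 (0.49) and Mark1 (0.36) were still higher by edgeR.

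Of 19 enzymes that modify tubulin, 6 were called higher and 2 lower. The polyglutamylases Ttll6 (1.13) and Ttll7 (0.95) had the largest rises, and the cytosolic carboxypeptidase Agbl3 (-0.80) and Svbp (-0.61), the partner of the vasohibins that remove tyrosine from tubulin, were the 2 that fell. Agbl3 had 228.9, 262.8 and 277.2 normalized counts in the Kir2.1-OE libraries and 485.6, 404.3 and 445.8 in the controls. With the offsets Agbl3 (-0.88) and Ttll4 (-0.60) were called lower and the vasohibin gene Vash1 (0.64) higher.

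**Figure D5:**
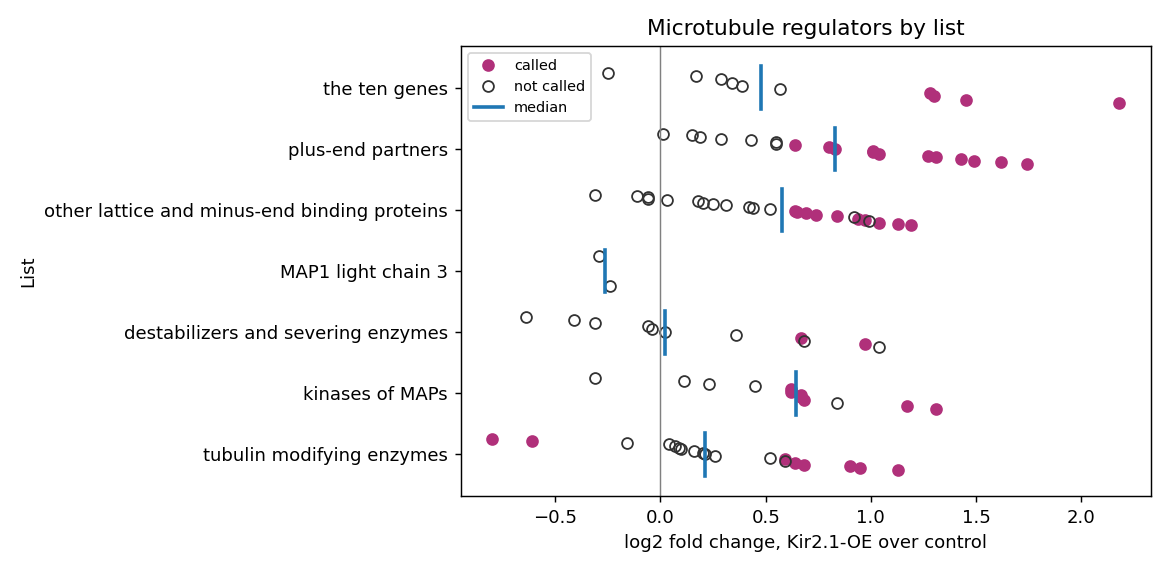
Log2 fold change, Kir2.1-OE over control, of each of the 10 genes and of the 87 genes in 6 lists of other microtubule regulators (filled magenta, called; open, not called; blue bar, list median). The plus-end partners have the highest median, 0.83, and the 2 genes of MAP1 light chain 3 the lowest, -0.27.

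The genes with the most similar profile over the 6 libraries were sought for Map1a, Map1b, Map2 and Mapt among 13645 genes, by the root mean square difference of the log2 normalized count after centring each gene. Nearest to Map1a were Jph3, a junctophilin (0.0715), Scn8a, a sodium channel of neurons (0.0952), and Gabbr2, a subunit of the GABA-B receptor (0.150). For Map1b the nearest were Csmd1 (0.0344), Trim67 (0.0616) and the cadherin Fat3 (0.0776). Those of Map2 were Slc38a1 (0.0184), Prkce (0.0327) and the splicing factor Rbfox2 (0.0346). The differences were not scaled by the size of a gene's own change, so they are not compared between the 4 genes. The second nearest gene to Mapt was another of the 10, Map6 (0.0574), between the neuronal kinesin Kif5c (0.0515) and Zfp385b (0.0619).

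Promoter sequences were taken from RefSeq (GRCm38.p6), which matched 7 of the genes used here with 9 windows, each from 250 to 31 bases before the start. They are shown for Map1a and Map1b, which rose most, and for Mapre1, which was lower. The windows are chr2:121289352-121289571 on the plus strand for Map1a, chr13:99516633-99516852 on the minus strand for Map1b and chr2:153741037-153741256 on the plus strand for Mapre1. Capitals mark GC boxes, GGGCGG on either strand.
Map1a: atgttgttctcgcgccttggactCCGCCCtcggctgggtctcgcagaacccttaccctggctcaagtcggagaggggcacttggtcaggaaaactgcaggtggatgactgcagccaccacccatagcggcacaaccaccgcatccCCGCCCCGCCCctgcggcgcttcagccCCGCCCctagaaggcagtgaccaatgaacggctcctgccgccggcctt
Map1b: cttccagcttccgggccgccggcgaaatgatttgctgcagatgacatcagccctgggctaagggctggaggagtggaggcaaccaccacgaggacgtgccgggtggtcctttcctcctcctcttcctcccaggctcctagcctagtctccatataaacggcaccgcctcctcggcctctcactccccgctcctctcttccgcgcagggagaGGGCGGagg
Mapre1: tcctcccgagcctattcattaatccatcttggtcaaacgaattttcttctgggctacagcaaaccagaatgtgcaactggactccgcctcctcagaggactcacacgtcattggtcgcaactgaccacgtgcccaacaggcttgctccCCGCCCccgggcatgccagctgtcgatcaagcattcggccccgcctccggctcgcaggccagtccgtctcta

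The Map1a window held 4 GC boxes with 65.5% GC, the Map1b window 1 with 64.1% and the Mapre1 window 1 with 58.2%. A GC box was found in 5 of the 9 windows, those of Map1a, Map1b, Map2 and Mapre1 and a single one of the windows of Map4, and in 28.5% of 32851 windows of the same length. The letters TATAAA were found in the Map1b window alone, and in 9.95% of all windows. As every window ends 31 bases before the start, these windows cannot show whether a gene has a TATA box nearer to it. The SOX core AACAAT and the RFX motif GTTGCCA were each found in 1 window, both of Mapre3, and in 8.65% and 3.07% of all windows, and the cyclic AMP response element TGACGTCA was in 0 of the 9 and in 1.14% of all. All motifs were searched on both strands. These are descriptions of the letters in these windows.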

How the data were processed

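RNA of 3 Kir2.1-OE and 3 control pools was sequenced. The authors enriched and sequenced RNA from dissected sensory epithelium, used the nf-core RNA pipeline to map paired reads to mm10 and Salmon to estimate reads per gene; the annotation, tool versions and strand setting are not given in the sources used here. The authors deposited expected counts, estimated reads that need not be whole (6.69% to 7.29% of values were not), neither divided by length nor scaled.

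Counts were rounded to whole numbers and fitted over the whole table with edgeR 4.0.16 in R 4.3.3 (filterByExpr, TMM factors 0.984 to 1.01, quasi-likelihood test, Benjamini-Hochberg adjustment, fold change above 1.5), after the model had been tested on simulated data. With a simulated trend on the length that the offsets use, the model without offsets made many false calls and the model with offsets few. That outcome follows from the setting, so it cannot show which model is the better for these libraries. Counts without offsets rest on the absence of such a trend. For normalized counts, each library was scaled by its TMM library size. Of 24411 symbols, 23376 matched GENCODE vM21 by symbol and 651 through an older symbol. Length and GC offsets came from a loess trend (span 0.4) on the longest coding transcript. Shared sequence was counted in stretches of 31 bases. Intervals are 95%. No source says that pools of a group came from separate litters, so p-values measure the spread between these pools.

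The members, lists and tests were chosen with earlier results of these data known. Named genes were the 10 members, in each list the 2 highest and 2 lowest log2 fold changes among called genes, the 3 nearest genes of Map1a, Map1b, Map2 and Mapt among genes with mean normalized counts of 50 or more, Kcnj2, and markers. Further named were the genes called only with offsets, Map1lc3a, Map1lc3b and the genes sharing sequence with a member, chosen after their values were seen. The marker lists not described above were hair cell (3 of 8 called higher, 0 lower), outer hair cell (2 of 6, 0 lower), fibrocyte and mesenchyme (3 of 7, 0 lower), macrophage (0 of 6, 0 lower) and erythrocyte (0 of 5 higher, 3 lower). Of all genes tested, 15.5% were called higher and 5.08% lower. In the erythrocyte list Hbb-bs had a library at 0.

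Alternatives were DESeq2 1.42.0 size factors and Wald tests, library size alone, upper quartile scaling, other filters, a replicate block, each library left out, limma-voom (limma 3.58.1), glmTreat and DESeq2 against a log2 fold change of 0.6, unrounded counts and no fold threshold. Their counts over the pathway lists, the offsets for levels relative to markers and the sums without Tectb or Uchl1 were added after the data were seen. Replicate numbers were not taken as pairs: deviations of same-numbered libraries correlated at -0.106, -0.232 and -0.213. The count column of control replicate 1 carries another number in its header than its label.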

Additional observations from a re-analysis of the deposited data

How the results depend on the processing

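Map1a, Map1b, Mapt and Map6 kept their call in every setting run without offsets, including each library left out and glmTreat and DESeq2 against 0.6, and 0 of the 10 genes changed sign in those settings. The 10 genes held 4 to 5 called higher and 0 lower when a library was left out; the fifth was Map2, called without Kir2.1-OE replicate 2 (0.59) or control replicate 2 (0.60). Without a fold threshold 8 were higher and 1 lower. The length and GC offsets reversed Map1s (-0.31) and Map4 (-0.24), with and without the replicate block, ended the call of Map1b (0.55) and made Mapre1 called lower (-0.68, or -0.69 with the block); the cause was not tested. With offsets and block together 2 were called higher and 1 lower, as Map1a (1.00) was also lost. Leaving out a library moved the log2 fold change of Map1a between 1.83 (without Kir2.1-OE replicate 3) and 2.38, Map1b 1.31 to 1.61, Mapt 1.16 to 1.44 and Map6 1.10 to 1.47. The log2 ratio difference of Map1a to Map1b moved from 0.70 to 0.47 without Kir2.1-OE replicate 3 and to 0.93 without replicate 2. Relative to neuronal markers, Map2 ranged from -0.29 to 0.18 and Map4 from -0.52 to 0.05, the upper ends without Kir2.1-OE replicate 3, and Map2 was at 0.07 without control replicate 3; relative to glia markers Map2 ranged from -0.09 to 0.03. With offsets Map1b was at -0.11 relative to neuronal markers, and Map2 (0.01), Mapre2 (0.10) and Mapre3 (0.24) were above 0 relative to IHC markers.

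Over all genes, called higher and lower were 2365 and 778, 1897 and 1378 with upper quartile scaling (57.9% higher instead of 75.2%), 813 and 541 with offsets, 643 and 466 with offsets and block, 832 and 57 by glmTreat, 576 and 30 by DESeq2 against 0.6, and 4184 and 3590 without a fold threshold. Leaving out a library gave 1878 to 2527 higher and 536 (without Kir2.1-OE replicate 1) to 1074 (without Kir2.1-OE replicate 3) lower. The replicate block alone gave 2220 and 718, and no call among the 10 genes changed with it; the pairing of the numbers has no source. The 87 pathway genes, 37 and 2 called, gave 8 and 3 with offsets, 6 and 3 with offsets and block, 12 and 0 by DESeq2 against 0.6, 16 and 0 by glmTreat, 51 and 7 without a fold threshold, and 30 to 41 and 1 to 3 with a library left out (1 without Kir2.1-OE replicate 1 or control replicate 3).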
